A study of Mus musculus with 6 samples.

Results

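Serum amyloid A and other acute phase proteins were followed through 9 genes: Saa1, Saa2, Saa3, Saa4, Hp, Orm1, Serpina3m, Serpina3n and Itih4. They were picked by symbol out of 22911 named genes on the array, and all 9 had a probe whose RefSeq transcript belonged to them (10 probes, 2 of them for Itih4). All 9 passed the filter on dim signal, among 32454 genes and unnamed probes tested. The lungs came from 6 male C57BL6 mice, 10 weeks old, that had fasted for 16 h and then received lipopolysaccharide (LPS, bacterial endotoxin) by intraperitoneal injection at 20 mg/kg. At 3 h and at 24 h after LPS, 3 mice were given saline and 3 were given recombinant antithrombin at 750 IU/kg. Antithrombin is the plasma inhibitor of thrombin. Total lung RNA was taken at 30 h and hybridised to 1 one-colour Agilent array per mouse. Every mouse carried the endotoxin, and no mouse without it was analysed here, so the values compare antithrombin with saline under endotoxin and say nothing of induction by LPS.

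The acute phase response is the change in plasma proteins that follows infection or injury. Interleukin-6 acting through STAT3, and interleukin-1 and TNF acting through NF-kB and C/EBP factors, switch on these genes in hepatocytes. Many of them are also transcribed outside the liver, and in the mouse Saa3 is the serum amyloid A gene best known for expression in macrophages, epithelium and fat. Saa1 and Saa2 encode the plasma serum amyloid A proteins carried on high-density lipoprotein, while Saa4 encodes the constitutive form. Hp encodes haptoglobin, which binds free haemoglobin, and Orm1 encodes the plasma carrier alpha-1-acid glycoprotein. Serpina3m and Serpina3n belong to the mouse cluster of serine protease inhibitors related to human antichymotrypsin, and Itih4 encodes a heavy chain of the inter-alpha-trypsin inhibitor family.

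The promoter windows of the 4 serum amyloid A genes are given to show how alike Saa1 and Saa2 are and how the sequences before Saa3 and Saa4 differ from them. Each is the RefSeq window of 300 bases on GRCm38.p6, from 250 bases before the transcript start to 50 after it, read 5′ to 3′ on the strand of the gene. Capitals mark matches to the C/EBP pattern TTGNNNAAT on either strand. The windows lie at chr7:46742931-46743230 (minus strand) for Saa1, chr7:46751583-46751882 (plus strand) for Saa2, chr7:46715627-46715926 (minus strand) for Saa3 and chr7:46732554-46732853 (minus strand) for Saa4.
Saa1: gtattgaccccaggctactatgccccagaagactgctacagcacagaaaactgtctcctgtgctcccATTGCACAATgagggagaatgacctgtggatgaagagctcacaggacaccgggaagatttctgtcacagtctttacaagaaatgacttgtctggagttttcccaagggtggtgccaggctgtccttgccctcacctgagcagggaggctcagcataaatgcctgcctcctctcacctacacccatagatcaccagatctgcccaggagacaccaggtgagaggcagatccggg
Saa2: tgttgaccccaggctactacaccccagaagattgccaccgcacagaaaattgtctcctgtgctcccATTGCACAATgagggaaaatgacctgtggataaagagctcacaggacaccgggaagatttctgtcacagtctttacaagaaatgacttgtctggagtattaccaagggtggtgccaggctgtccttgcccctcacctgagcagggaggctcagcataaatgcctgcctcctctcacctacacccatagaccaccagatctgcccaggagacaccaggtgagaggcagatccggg
Saa3: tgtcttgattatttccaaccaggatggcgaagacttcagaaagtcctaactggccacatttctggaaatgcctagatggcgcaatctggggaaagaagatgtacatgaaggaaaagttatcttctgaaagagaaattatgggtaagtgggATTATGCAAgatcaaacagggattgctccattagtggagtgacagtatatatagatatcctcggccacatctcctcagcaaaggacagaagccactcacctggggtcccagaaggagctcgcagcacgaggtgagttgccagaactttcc
Saa4: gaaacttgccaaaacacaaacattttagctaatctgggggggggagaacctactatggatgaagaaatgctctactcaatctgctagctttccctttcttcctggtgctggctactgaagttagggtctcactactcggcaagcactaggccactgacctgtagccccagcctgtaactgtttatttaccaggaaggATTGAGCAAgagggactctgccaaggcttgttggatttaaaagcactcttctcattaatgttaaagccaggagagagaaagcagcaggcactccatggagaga

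In a global alignment, 287 of 301 columns were identical between the Saa1 and Saa2 windows (95.3%). Saa3 and Saa4 shared 47.4% with each other and 49.9% to 54.1% with Saa1 and Saa2. The window of Itih4, a gene of another family, shared 51.2% to 54.0% with these 4 windows, so shares of this size show no particular likeness. RefSeq lists Saa2 among the older names of Saa1 and Saa1 among those of Saa2, so older accounts may use the names the other way round. The pattern TTGNNNAAT was present in all 4 windows and in 11.4% of 32851 RefSeq promoter windows of the same length. In Saa1 and Saa2 the plus-strand and minus-strand matches overlapped, giving ATTGCACAAT. The match in Saa3 began 100 bases before the transcript start and that in Saa4 began 53 bases before it. The NF-kB pattern, GGG followed by any 2 bases and TTTCC and held by 1.63% of windows, and the STAT pattern TTCNNNGAA, held by 8.30%, were not matched in these 4 windows. Of the other members, RefSeq windows were used for Serpina3n, which held GGGCTTTTCC for NF-kB, and for Itih4, which held TTCCGAGAA for STAT. These are matches of letters and say nothing of binding.

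Values below are log2 of the processed signal after subtraction of the array's own 75th percentile, so 0 is the level of that percentile. Levels of different genes come from different probes and are not set against each other. The share of probes detected well above background was 69.8% to 72.1% per array, and 0 spots were saturated. Pearson r across tested genes ran from 0.988 to 0.992 between saline arrays and from 0.993 to 0.996 between antithrombin arrays, while r between saline mouse 2 and the antithrombin arrays was 0.991 to 0.994. All 6 arrays lay on 1 slide, with mouse 3 of each group on row 2 and the other 4 mice on row 1. Alveolar type 2 cell markers were all detected, 9 of 9, and among them the surfactant gene Sftpd lay between 8.08 and 8.68. Differences are antithrombin minus saline, with n = 3 mice in each group and tests by limma, two-sided and adjusted by Benjamini-Hochberg over all genes tested. With 3 arrays per group, precision is limited. The p-values weigh each difference against the spread between mice, with the variance of each gene drawn toward that of all genes. In whole lung RNA, a change in the number of cells that express a gene cannot be told apart from a change in RNA per cell.

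None of the 9 genes passed an adjusted p of 0.05, against 0.00616% of all genes tested. At an unadjusted p under 0.05, 2 of the 9 differed, Saa4 higher and Serpina3m lower, where 21.6% of all genes did (8.73% higher and 12.9% lower). The same 2 genes were the ones whose groups did not overlap, where 28.9% of all genes had groups without overlap (10.7% higher and 18.1% lower). Both shares lie close to the background of the whole array. Saa4 met the filter of 3 arrays through the antithrombin mice, where it was high, so its place in these counts is no support for a difference, and with detection required on all 6 arrays it was not tested. The difference was negative for 7 members, as it was for 57.0% of all genes, and the median over the 9 was -0.13 against -0.053 over all genes tested.

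**Figure D1:**
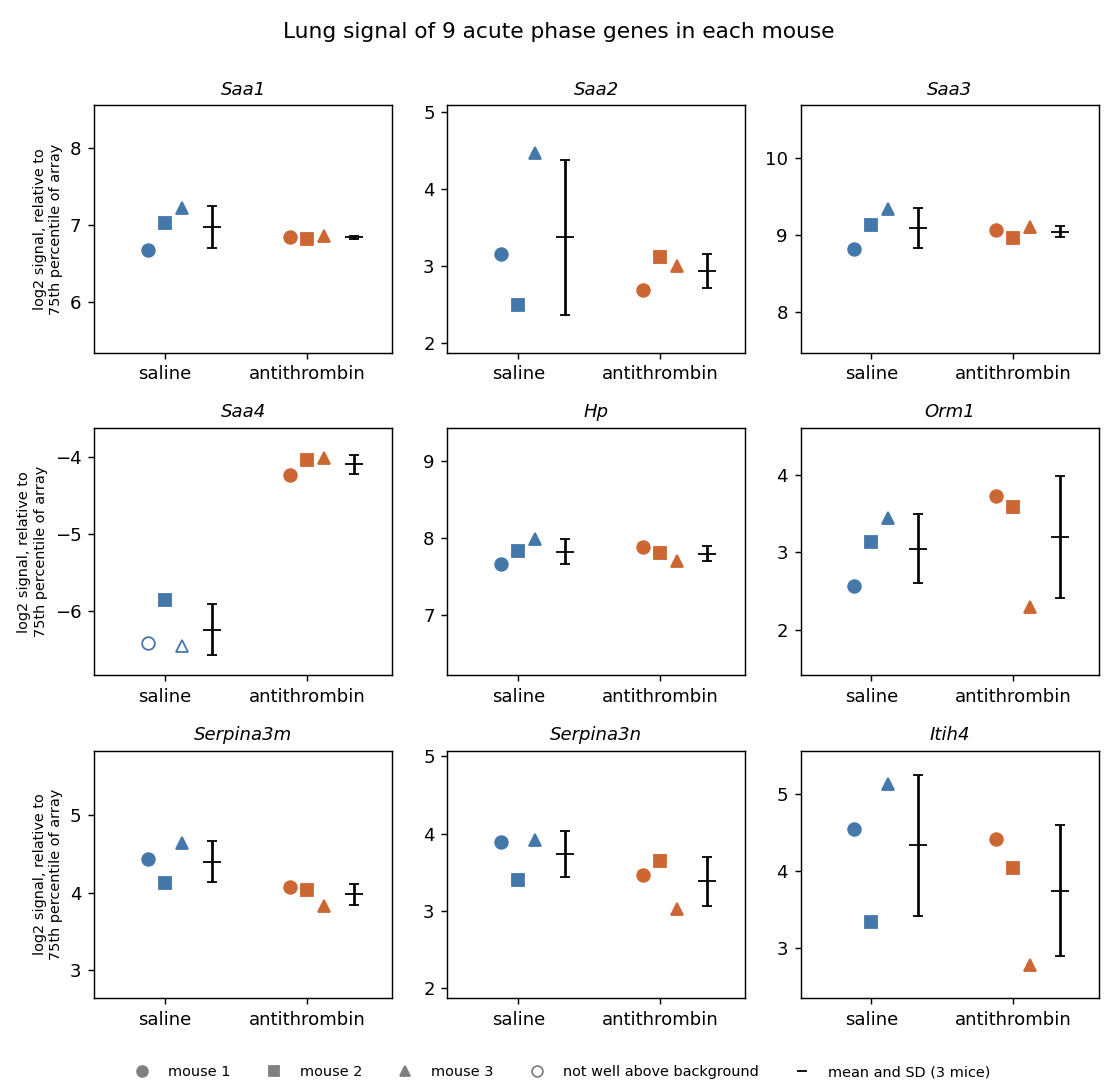
Each panel plots the log2 signal (relative to the 75th percentile of the array) of 1 gene in the 3 saline and 3 antithrombin mice, every panel spanning the same number of log2 units, with open symbols where the probe was not well above background and black bars for mean and SD. The groups lie apart for Saa4 and Serpina3m and overlap for the other 7 genes.

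Saa3, the local serum amyloid A gene, had nearly the same level in both groups. It stood at 8.82, 9.14 and 9.33 in saline mice 1, 2 and 3 and at 9.07, 8.96 and 9.11 in antithrombin mice 1, 2 and 3. All 3 antithrombin values lay inside the saline range. The SD was 0.26 in the saline and 0.075 in the antithrombin group (n = 3 each), and the difference was -0.051 (SE 0.15, limma adjusted p = 0.859). The 95% interval allowed an antithrombin to saline ratio of 0.751 to 1.24. The Saa3 spot reached between 43.4% and 52.3% of the saturation limit of the scanner, so it was bright but unsaturated on every array.

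Saa1 behaved likewise between groups. Its values were 6.68, 7.02 and 7.22 in saline mice and 6.84, 6.81 and 6.86 in antithrombin mice, so the antithrombin mice again lay inside the saline range. The mean was 6.97 ± 0.27 after saline and 6.84 ± 0.023 after antithrombin (SD, n = 3 each). The difference was -0.13 (SE 0.15, limma adjusted p = 0.619), with an interval for the ratio of 0.707 to 1.17.

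Saa2, the near copy of Saa1 at its promoter, varied far more between saline mice. It was measured at 3.16, 2.49 and 4.47 in saline mice 1, 2 and 3 and at 2.69, 3.11 and 3.00 after antithrombin. Saline mouse 3 alone was high, and the lowest value also came from a saline mouse. The saline SD was 1.01 against 0.22 in the antithrombin group, and the within-group spread of Saa2 stood at percentile 97.6 of all genes tested, compared with 51.2 for Saa1 and 49.9 for Saa3. The difference of -0.44 (SE 0.47, limma adjusted p = 0.594) became 0.11 without saline mouse 3, so its sign rested on that animal. Saa1 and Saa2 transcripts are close in sequence and the probe sequences were not used here, so how far each probe also takes up the other transcript was not tested.

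Saa4, the constitutive serum amyloid A gene, was measured at signals near background. The processed intensity was 9.89, 12.8 and 8.06 in saline mice and 45.0, 49.8 and 49.2 in antithrombin mice. On the log2 scale these are -6.42, -5.86 and -6.45 against -4.24, -4.04 and -4.01, and every antithrombin mouse lay above every saline mouse. The probe was well above background in all 3 antithrombin mice but, among saline mice, in mouse 2 alone. The fitted difference was 2.15 (SE 0.18) and did not pass the adjustment (limma adjusted p = 0.106, unadjusted p = 9.8e-06). With 2 of 3 saline values not well above background, no ratio is given.

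The fitted Saa4 difference was 0.51 (limma adjusted p = 0.084) when the processed signal was replaced by the median signal with normexp correction and an offset of 50, which is about the size of the antithrombin signals themselves. With array weights it was 2.23 and passed (limma adjusted p = 0.0223). Without saline mouse 2, the one saline mouse in which Saa4 was detected, it was 2.34 and passed (limma adjusted p = 0.0168). That fit held no saline value well above background. Saa4 entered the test through the antithrombin mice, where it was high, so neither pass is support for a difference. Leaving out any other mouse gave 2.04 to 2.22, with limma adjusted p from 0.273 to 0.353. Saline mouse 2 was the saline array closest to the antithrombin arrays over all genes, and without it 3419 genes passed the adjustment, against 2 with all 6 arrays.

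Hp, the haptoglobin gene, had nearly the same level in both groups. Saline mice gave 7.66, 7.83 and 7.98 and antithrombin mice 7.89, 7.80 and 7.70, so the antithrombin values lay inside the saline range. The difference was -0.026 (SE 0.12, limma adjusted p = 0.912), and the interval for the ratio ran from 0.799 to 1.21. Its sign was not stable: it was 0.078 with quantile normalisation, 0.021 with array weights, 0.052 without saline mouse 3 and 0.021 without antithrombin mouse 3. Neutrophils carry haptoglobin in their granules. Among 12 tested neutrophil markers, 10 had a positive difference (13967 of 32454 genes overall), 4 were higher at an unadjusted p under 0.05 (8.73% overall) and the median was 0.35, and the mean over this list, relative to the saline mean, was -0.17 to 0.27 in saline mice and 0.44 to 0.58 in antithrombin mice. The granule gene Camp (1.21) and the enzyme gene Padi4 (0.95) had the smallest p among them, and neither passed the adjustment (limma adjusted p = 0.156 and 0.153). The part of these cells in the Hp and Saa4 values was not tested.

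Orm1 varied between mice within both groups. It was 2.57, 3.13 and 3.45 in saline mice and 3.73, 3.59 and 2.29 in antithrombin mice 1, 2 and 3, so the antithrombin group held both the highest and the lowest value. The difference of 0.15 (SE 0.41, limma adjusted p = 0.844) had an interval from -0.83 to 1.14. It was 0.61 without antithrombin mouse 3, and it was negative without saline mouse 1 (-0.088), antithrombin mouse 1 (-0.11) or antithrombin mouse 2 (-0.041).

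The paralogs Orm2 and Orm3, which encode further forms of alpha-1-acid glycoprotein, had the same low mouse. Orm2 stood at 1.22, 1.70 and 2.33 in saline mice and at 2.37, 2.41 and 0.72 in antithrombin mice. Orm3 stood at -1.97, -1.95 and -0.48 in saline mice and at -0.85, -0.82 and -3.27 in antithrombin mice. All 3 genes were lowest in antithrombin mouse 3, and none differed between groups by more than its SE (0.41 for Orm1, 0.50 for Orm2 and 0.74 for Orm3). The 3 transcripts are related, and cross-hybridisation between their probes was not tested.

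**Figure D2:**
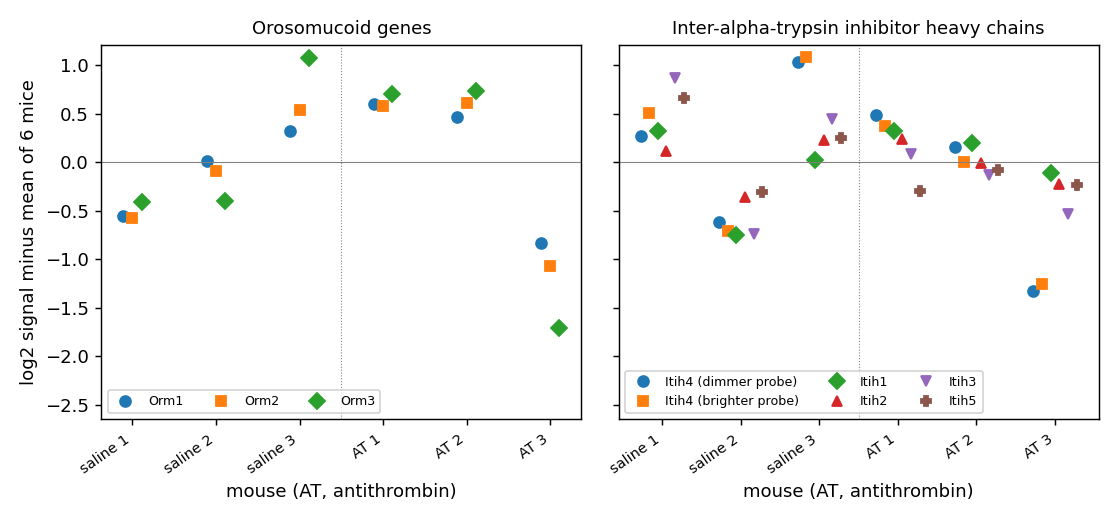
Each point is the log2 signal of 1 probe in 1 mouse less the mean of that probe over the 6 mice, for orosomucoid genes (left) and inter-alpha-trypsin inhibitor heavy chains (right), with saline mice left of the dotted line and antithrombin (AT) mice right of it. Antithrombin mouse 3 is the lowest for Orm1, Orm2, Orm3 and both Itih4 probes, and saline mouse 3 is the highest for both Itih4 probes.

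Itih4 had the widest within-group spread of the 9, at percentile 98.9 of all genes tested. The brighter of its 2 probes gave 4.54, 3.33 and 5.12 in saline mice and 4.41, 4.04 and 2.79 in antithrombin mice. The dimmer probe gave -0.45, -1.34 and 0.31 in saline mice and -0.23, -0.57 and -2.05 in antithrombin mice. Both probes were highest in saline mouse 3 and lowest in antithrombin mouse 3, and the groups overlapped on both. The difference was -0.59 (SE 0.56, interval -1.93 to 0.75, limma adjusted p = 0.55) for the brighter probe and -0.45 for the dimmer one. It was -0.11 without antithrombin mouse 3 and -1.09 without saline mouse 2.

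The other heavy chain genes also did not separate the groups. Itih3 was -2.40, -4.00 and -2.82 in saline mice and -3.18, -3.39 and -3.80 in antithrombin mice. On the brightest probe of each gene all 5 heavy chains were lowest, among saline mice, in mouse 2. A dimmer Itih1 probe did not share this order, at -5.51, -5.27 and -6.26 in saline mice 1, 2 and 3. The array-wide share of genes with this order was not computed. Differences were 0.27 for Itih1 (SE 0.28), 0.0086 for Itih2 (SE 0.20), -0.38 for Itih3 (SE 0.41) and -0.40 for Itih5 (SE 0.24). At an unadjusted p under 0.05, 0 of the 5 family members differed, where 21.6% of all genes did. Groups without overlap were held by 0 of the 5, against 28.9% of all genes. With 5 genes, such counts are no result about the family.

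Serpina3m was lower in each antithrombin mouse than in any saline mouse. It was 4.43, 4.13 and 4.65 in saline mice and 4.08, 4.03 and 3.83 in antithrombin mice, and the lowest saline value exceeded the highest antithrombin value by a narrow margin. The means were 4.40 ± 0.26 and 3.98 ± 0.13 (SD, n = 3 each), a difference of -0.42 (SE 0.16, interval -0.81 to -0.042). Saline was 1.34-fold above antithrombin, and the difference did not pass the adjustment (limma adjusted p = 0.204, unadjusted p = 0.0345). Leaving out single mice gave -0.56 to -0.30, but the unadjusted p was no longer under 0.05 in 5 of the 6 such fits, the exception being the one without saline mouse 2. It was also lost with quantile normalisation, with the mouse number as a block and with the slide row as a block.

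Serpina3n, the other inhibitor of the cluster, was 3.90, 3.40 and 3.92 in saline mice and 3.47, 3.65 and 3.03 in antithrombin mice. Saline mouse 2 fell inside the antithrombin range, so the groups overlapped. The difference was -0.35 (SE 0.21, limma adjusted p = 0.357) and the interval for the ratio ran from 0.55 to 1.11. Without single mice it lay between -0.52 and -0.18.

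Across the 10 Serpina3 genes tested, 0 passed the adjustment, while at an unadjusted p under 0.05 1 gene was higher and 3 were lower (8.73% and 12.9% of all genes tested). Besides Serpina3m, the lower genes were Serpina3k (-0.53, SE 0.17) and Serpina3c (-0.43, SE 0.17), and the higher one was Serpina3i (0.47, SE 0.18). A dimmer probe of Serpina3i gave 0.32. The remaining members, Serpina3a, Serpina3b, Serpina3f, Serpina3h, Serpina3j and Serpina3n, had differences between -0.35 and 0.17, and the median over the cluster was -0.28. The genes of this cluster are close paralogs, and probes were not checked for shared sequence.

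**Figure D3:**
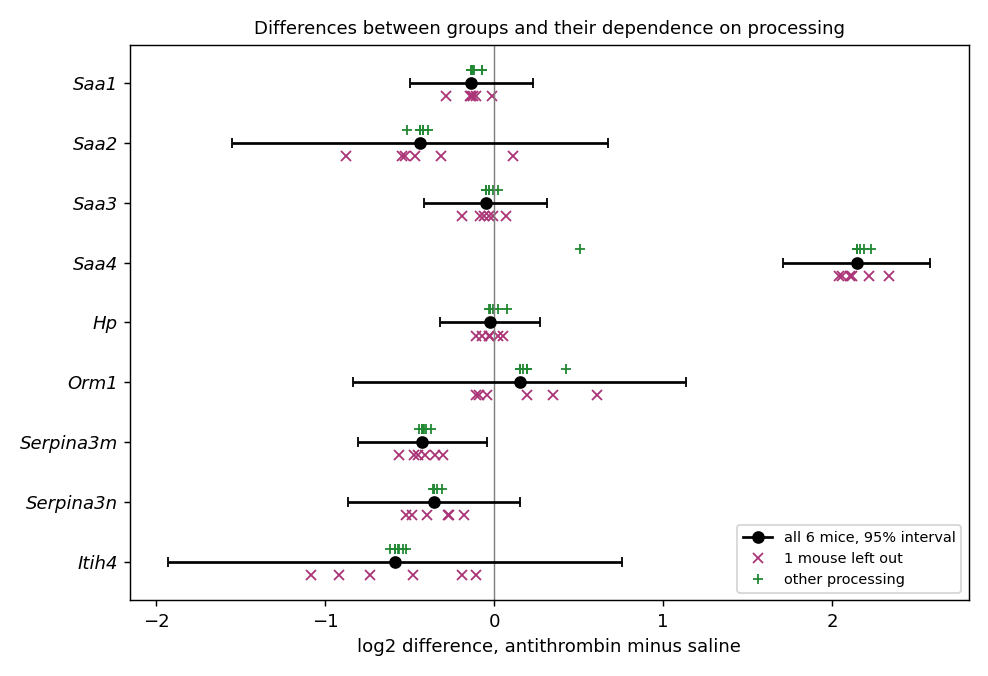
Log2 differences (antithrombin minus saline) with 95% intervals for the 9 genes (black), the values with 1 mouse left out (crosses below) and those under other processing (plus signs above). Saa4, not well above background in 2 saline mice, lies at 2.15 with 1 value at 0.51 under normexp correction of the median signal, the interval of Serpina3m ends just below 0, and the other 7 intervals include 0.

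Several members ranked the mice alike. Saline mouse 3 was the highest of all 6 mice for 7 of the 9 members, the exceptions being Saa4 and Orm1, while over all genes it was the highest for 26.9%. Antithrombin mouse 3 was the lowest for 4 members, Orm1, Serpina3m, Serpina3n and Itih4, against 21.7% of all genes. Saline mouse 1 was the lowest for 3 members, Saa1, Saa3 and Hp, against 14.2% of all genes. Without saline mouse 3 the median difference of the 9 members was 0.052 in place of -0.13.

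The 2 arrays on row 2 of the slide are those of these 2 mice, so the differences were also read within each row, a choice made after the data were seen. On row 1, with 2 mice per group, Saa2 (0.079), Saa3 (0.036), Hp (0.10), Orm1 (0.80) and Itih4 (0.29) had a positive difference, and Saa1 (-0.023), Serpina3m (-0.23) and Serpina3n (-0.089) a negative one. On row 2, with 1 mouse per group and so no replicate, the same 8 genes were all negative, from -0.22 for Saa3 to -1.47 for Saa2 and -2.33 for Itih4. Saa4 was higher after antithrombin on both rows, by 2.00 and 2.44. These values are no support for a difference, because Saa4 entered the test through the antithrombin mice. For Saa4, saline mouse 1 on row 1 and saline mouse 3, the only saline mouse on row 2, were not well above background. Slide row and individual mouse cannot be told apart on row 2. With the row as a block in limma, 0 members passed, and the adjusted p was 0.224 for Saa4 and 0.265 for Serpina3m.

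The 5 named genes whose values over the 6 arrays were most like those of Saa3, out of 16595 detected on all arrays, were Usf2, Mdm4, Dlg1, Socs4 and H4c8. For Hp they were Dipk1b, N4bp2l2, Gramd3, Nkx2-3 and Snupn. Pearson r lay between 0.975 and 0.996 for the first set and between 0.970 and 0.980 for the second. With 6 arrays and so many genes to choose from, values this high describe the choice and are not a test.

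Among 33 tested genes of a wider acute phase list, 6 had higher and 4 had lower values at an unadjusted p under 0.05 and 0 passed the adjustment (limma), with a median difference of 0.0086. That is 10 of 33, where 21.6% of all genes had such a p. The metalloreductase gene Steap4 had the smallest p, at -1.19, -0.94 and -1.32 in saline mice and -0.28, -0.22 and -0.48 in antithrombin mice, a difference of 0.83 (SE 0.14, limma adjusted p = 0.151). Next came the mitochondrial superoxide dismutase gene Sod2 (1.19, SE 0.28), the interleukin-1 receptor antagonist gene Il1rn (1.14, SE 0.33) and the long pentraxin gene Ptx3 (1.04, SE 0.30). The 7 genes of the list that were on the array but not tested were Fga, Fgb, Crp, Apcs, A2m, Serpina1c and Serpina10, most of them known as liver products.

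Inducers of the response and their receptors held 5 higher and 2 lower genes among 21 tested, by an unadjusted p under 0.05, where 8.73% of all genes were higher and 12.9% lower, again with 0 past the adjustment (limma) and a median of 0.19. Il1a, encoding interleukin-1 alpha, had a difference of 1.02 (SE 0.23) and Tnf, encoding tumour necrosis factor, one of 1.02 (SE 0.27). Il1rap, the accessory chain of the interleukin-1 receptor, differed by 0.33 (SE 0.12), and Lifr, the leukaemia inhibitory factor receptor, by -0.33 (SE 0.11). On these cytokine genes saline mouse 2 stood nearest the antithrombin mice, with Tnf at 0.33 against -0.65 and -0.68 in saline mice 1 and 3 and 0.63 to 0.76 after antithrombin. Saline mouse 2 was the saline array closest to the antithrombin arrays over all genes too, so this order is not particular to cytokine genes. Sod2, Il1rn, Ptx3 and Bcl3 shared it.

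Transcription factors and feedback genes of the response held 2 higher and 1 lower among 17 tested by the same threshold, with a median of 0.022. The NF-kB family cofactors Bcl3 and Nfkbiz differed by 0.82 (SE 0.28) and 0.37 (SE 0.13), and the kinase gene Jak2 by -0.30 (SE 0.10). The subunit gene Nfkb1 came next, at 0.39 (SE 0.16), and did not meet that threshold (limma unadjusted p = 0.0526). Receptors and clearance genes gave 3 higher and 2 lower of 19, with a median of -0.10. Those with the smallest p were the protease gene Mmp9 (0.50, SE 0.17), the scavenger receptor gene Cd36 (-0.38, SE 0.13), the apolipoprotein gene Apoe (-0.51, SE 0.19) and the cholesterol esterifying enzyme gene Lcat (0.54, SE 0.21). The same array-wide shares of 8.73% higher and 12.9% lower apply to both lists, and 0 of their genes passed the adjustment (limma).

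**Figure D4:**
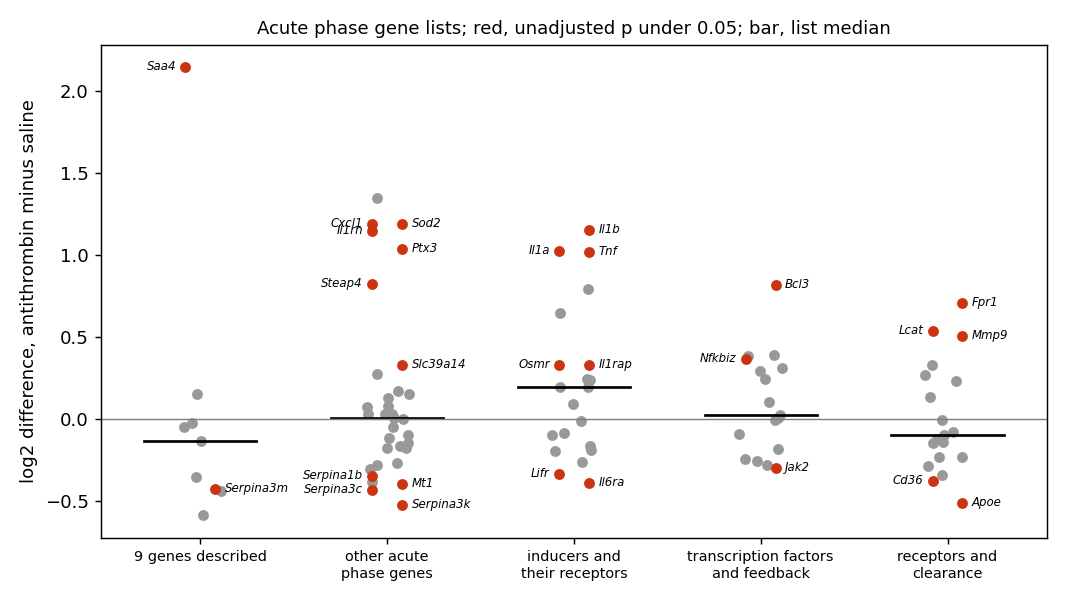
Log2 differences (antithrombin minus saline) of every tested gene of the 9 described and of 4 related lists, in red with names where the unadjusted p was under 0.05 and with a bar at the list median. Medians lie between -0.13 and 0.19, and the named points fall on both sides of 0 in every list.

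Hepatocyte markers were read to see whether liver RNA moved with these genes. Of 15 markers 12 were tested, and Ttr, Apoh and Cps1 were not well above background on enough arrays. Albumin (Alb) was -4.80, -6.20 and -4.50 in saline mice and -6.26, -5.78 and -5.33 in antithrombin mice. The mean over the 12 markers was taken relative to the saline mean. It ran from -0.050 to 0.059 in saline mice and from -0.12 to 0.019 in antithrombin mice. The groups overlapped on this mean, which averages 6 positive and 6 negative differences. At an unadjusted p under 0.05 (limma), 0 markers were higher and 3 lower, where 8.73% and 12.9% of all genes were. The same 3, Hrg, Tat and Apoc3 (-0.26), were lower without overlap of the groups, as 18.1% of all genes were. The 2 with the smallest p, Hrg (-0.39) and Tat (-1.03), had an unadjusted p of 0.0188 and 0.0192 and did not pass the adjustment (limma adjusted p = 0.177 and 0.178).

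Markers of other cell types were summarised in the same manner. The mean over 13 monocyte and macrophage markers was -0.14 to 0.10 in saline mice and 0.0052 to 0.16 in antithrombin mice, with Lyz2 (0.34) and Adgre1 (0.64) at the smallest p. Over 9 adipocyte markers it was -0.77 to 0.59 in saline mice and -0.17 to 0.98 in antithrombin mice, with Lpl (-0.59) and Adipoq (1.87) first. Over 8 airway secretory markers it was -1.61 to 1.13 and 0.22 to 1.24, with Scgb3a2 (1.15) and Aldh1a1 (-0.17) first. Over 6 alveolar type 1 markers the mean did not overlap between groups. It was -0.13 to 0.16 in saline mice and -0.41 to -0.31 in antithrombin mice, with Hopx (-0.52) and Cav1 (-0.59) first. All 6 had a negative difference (57.0% of all genes), and 3 had groups without overlap, each lower (18.1% of all genes). Over 9 alveolar type 2 markers the mean was -0.096 to 0.071 and -0.096 to 0.0084, with Sftpd (-0.30) and Lamp3 (0.22) first. Over 10 fibroblast and mesothelium markers it was -0.17 to 0.093 and -0.21 to 0.090, with Col1a1 (0.27) and Krt19 (-0.27) first. Over 9 endothelial markers it was -0.028 to 0.036 and -0.16 to 0.020, with Car4 (0.32) and Cdh5 (-0.15) first. The part of any of these cells in the values of the 9 genes was not tested.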

How the data were processed

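Lung RNA of 6 mice was measured on 6 one-colour arrays, and the sample titles gave the group and number of each mouse. Scanner files were deposited with an intensity per spot, background-subtracted and not scaled between arrays, made per the file headers with Agilent Feature Extraction 10.7.3.1 (the submitters' processing notes name 9.1). The deposited table holds log2 values by the authors that matched these intensities within 0.01 log2 for 100% of values after a shift per array and a constant per probe, so how it was centred and scaled stays unknown. Its column medians ran from -0.0372 to 0.0770.

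Control and outlier spots were left out, spots of a probe were averaged, and log2 processed signal was scaled to the 75th percentile of each array. Transcript accessions matched RefSeq (GRCm38.p6) for 32994 of 56605 probes. The brightest probe stood for each symbol, and genes well above background on at least 3 arrays were tested with limma 3.58.1 in R 4.3.3. Figures used matplotlib 3.10.9. On simulated data with 32424 genes for this comparison, the test recovered 43 of 100 genes changed 2-fold and 81 of 100 changed 4-fold, with 7 unchanged genes called. The simulated noise was independent between genes, with no deviation shared across an array, so these rates may not hold for the real arrays.

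The 9 genes, the lists and the markers were chosen with earlier results of these data known. Named genes were the 9 with every probe, their families, the 4 genes with the smallest p in each pathway list, the 2 with the smallest p in each marker list, and the 5 most correlated with Saa3 and with Hp. Alternatives changed background correction, normalisation, filter, probe summary, source of values, variance model, array weights, blocks and the mice included. Protein sequences were not used here.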

Additional observations from a re-analysis of the deposited data

How the results depend on the processing

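With all mice, 2 genes of the array and 0 of the 9 members passed the adjusted threshold of limma (2 members at an unadjusted p under 0.05). The array count was 1 with normexp correction of the median signal, quantile normalisation, median scaling, no filter, detection on all 6 arrays, probes tested singly, trended robust variance or slide row as a block, and it was 0 to 3419 when single mice were left out, the highest without saline mouse 2. The member count was 1 with array weights and 0 to 1 when single mice were left out. The member in question was Saa4, at 2.23 with array weights and 2.04 to 2.34 without single mice. It entered the test through the antithrombin mice, where it was high, so the passing fits are no support for a difference. The sign turned with quantile normalisation for Saa3 (0.020) and Hp (0.078), and with array weights for Hp (0.021). Leaving out single mice gave -0.88 to 0.11 for Saa2, -0.19 to 0.067 for Saa3, -0.11 to 0.052 for Hp (0.021 without antithrombin mouse 3) and -0.11 to 0.61 for Orm1 (-0.088 without saline mouse 1 and -0.041 without antithrombin mouse 2). The cause of these changes was not tested. Saa1, Saa4, Serpina3m, Serpina3n and Itih4 kept their sign under each alternative fit, but Itih4 was 0.29 within slide row 1.

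The mouse numbers were not taken as pairs in the main fit. Deviations from the group mean correlated at -0.0095, -0.16 and -0.28 between same-numbered mice. Between mice of different number they correlated at -0.10 to 0.28. With 3 mice per group, each centred on its own mean, these values cannot show whether the numbers pair the samples. With the mouse number as a replicate block 0 genes passed the adjusted threshold, while an unadjusted p under 0.05 was reached by 2144 genes with higher and 2934 with lower values. Normexp on the mean signal was not run, and Saa4 was not tested where detection on all 6 arrays was required. Saa4 lay close to the background in saline mice, so no ratio is given for it.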
